A study of Mus musculus with 3 samples.

Results

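Chemokines are small secreted proteins that direct the migration of leukocytes, and they act through receptors of the family coupled to G proteins. The set described here holds the genes whose symbol names a chemokine of the CC, CXC, CX3C or XC family, a receptor of these families, or an atypical receptor, and it was taken by symbol alone, without use of any measured value. It comprises 60 of the 19505 genes on the arrays, measured by 61 probes, and all 60 Entrez identifiers carried the same symbol in the RefSeq gene table. By role these are 38 ligands and 22 receptors.

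Heart RNA of C57BL/6 mice labelled as male was hybridised to 3 Affymetrix microarrays, with 1 array per group. The sham group had an operation without constriction, the AAC group had abdominal aortic constriction, a narrowing of the aorta that raises the pressure load of the left ventricle, and the AAC + DAPA group had the constriction followed by dapagliflozin, a drug that blocks glucose uptake by the cotransporter SGLT2, at 25 mg/kg per day for 12 weeks in the drinking water. Per the study's methods the sham and AAC groups received saline. The labels give an age of 10 weeks without saying at which point of the study, and after 12 weeks of drug the mice were older. The sources used here do not say how many mice gave the RNA of an array.

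The 4 families are named for the spacing of the cysteines near the start of the protein. Inflammatory chemokines are made in injured or infected tissue and call in monocytes, neutrophils or effector lymphocytes, whereas homeostatic chemokines place lymphocytes and dendritic cells in lymphoid organs. In the heart under pressure load the axis of Ccl2-type ligands and the receptor Ccr2 is known for recruiting blood monocytes, the CXC ligands without the ELR motif that interferon gamma induces act on Cxcr3 of activated T cells, and Cxcl12 with Cxcr4 holds progenitor cells and lymphocytes in place. Atypical receptors bind chemokines without coupling to G proteins and clear or present them.

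Promoter sequences are shown for 3 sets of neighbours and for the receptor with the largest difference. Ccl12 and Ccl8 were both high in AAC, Ccl9 and Ccl6 were both low in AAC + DAPA, and Cxcl9 was high in AAC beside Cxcl10, which stayed within 1.5-fold. Each run gives, 5′ to 3′ on the strand of the gene, the 250 bases before the RefSeq start of transcription in assembly GRCm38.p6, with capitals marking letters that match a motif searched on both strands. Ccl12 lies at chr11:82101595-82101844 and Ccl8 at chr11:82114935-82115184, both on the plus strand. Ccl9 lies at chr11:83578637-83578886 and Ccl6 at chr11:83593088-83593337, both on the minus strand. Cxcl9 lies at chr5:92328080-92328329 and Cxcl10 at chr5:92348890-92349139, both on the minus strand, and Ccr2 lies at chr9:124101933-124102182 on the plus strand.
Ccl12: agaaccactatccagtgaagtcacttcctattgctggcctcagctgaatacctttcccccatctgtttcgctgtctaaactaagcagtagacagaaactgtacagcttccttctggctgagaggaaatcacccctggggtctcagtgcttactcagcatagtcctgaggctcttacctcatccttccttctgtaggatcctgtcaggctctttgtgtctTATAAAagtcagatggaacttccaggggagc
Ccl8: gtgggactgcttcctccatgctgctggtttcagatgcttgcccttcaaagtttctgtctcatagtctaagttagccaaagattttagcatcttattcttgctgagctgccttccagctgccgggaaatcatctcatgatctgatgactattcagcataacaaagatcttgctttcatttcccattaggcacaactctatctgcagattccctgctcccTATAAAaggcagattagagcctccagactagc
Ccl9: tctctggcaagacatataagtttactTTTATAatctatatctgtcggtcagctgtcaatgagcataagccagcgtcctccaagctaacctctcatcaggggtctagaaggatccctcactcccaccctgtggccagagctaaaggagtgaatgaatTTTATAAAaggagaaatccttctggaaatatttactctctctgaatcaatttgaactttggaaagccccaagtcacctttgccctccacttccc
Ccl6: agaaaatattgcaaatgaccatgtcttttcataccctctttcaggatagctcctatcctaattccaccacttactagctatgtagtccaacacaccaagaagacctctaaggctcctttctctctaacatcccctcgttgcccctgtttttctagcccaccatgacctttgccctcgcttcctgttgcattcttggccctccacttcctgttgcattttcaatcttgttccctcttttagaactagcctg
Cxcl9: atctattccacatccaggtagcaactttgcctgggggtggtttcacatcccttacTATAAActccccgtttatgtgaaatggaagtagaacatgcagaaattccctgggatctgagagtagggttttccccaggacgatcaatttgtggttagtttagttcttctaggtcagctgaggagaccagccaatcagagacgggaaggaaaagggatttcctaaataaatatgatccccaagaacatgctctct
Cxcl10: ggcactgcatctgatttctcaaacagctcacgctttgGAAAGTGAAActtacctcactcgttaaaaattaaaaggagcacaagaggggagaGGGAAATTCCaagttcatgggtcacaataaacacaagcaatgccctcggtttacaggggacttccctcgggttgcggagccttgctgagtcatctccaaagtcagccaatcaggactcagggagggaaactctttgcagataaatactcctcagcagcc
Ccr2: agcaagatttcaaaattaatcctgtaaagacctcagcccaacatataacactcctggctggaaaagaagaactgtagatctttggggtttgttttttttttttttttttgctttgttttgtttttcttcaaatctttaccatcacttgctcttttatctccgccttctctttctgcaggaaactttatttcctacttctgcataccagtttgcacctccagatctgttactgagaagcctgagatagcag
The capitals in Ccl12, Ccl8, Ccl9 and Cxcl9 mark TATAAA, the letters of the TATA box, on either strand, and in Ccl9 a match on each strand overlaps. The matches lie 31 bases before the start in Ccl12 and 32 in Ccl8. They lie farther away in Cxcl9, at 195 bases, and in Ccl9, at 92, 94 and 224 bases, where they are matches of letters only. In Cxcl10 the left run of capitals, 213 bases before the start, matches the interferon-stimulated response element (ISRE), searched as GAAA, any 2 bases and GAAA, and the right run, 159 bases before the start, matches the NF-kB site, searched as GGGA, any 2 bases and TTCC. Ccl6 and Ccr2 hold no match to the motifs searched. Position by position, without gaps, Ccl12 and Ccl8 shared 36.0% of the 250 bases, Cxcl9 and Cxcl10 shared 23.6%, and Ccl6 and Ccl9 shared 50 of 250 bases.

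A promoter sequence was at hand for 45 of the 60 genes, as 51 windows, since some genes have several starts. The TATA box letters TATAAA stood in 13 of the 51 windows, against 12.4% of the 32851 windows of all genes. They stood 31 bases before the start in Ccl12, 32 bases in Ccl8 and 30 bases in Cxcr4. The NF-kB letters stood in 6 of the 51 windows, those of Ccl1, Ccr3, Cxcl1, Cxcl2, Cxcl3 and Cxcl10, against 1.21% of all windows, and in 0 of the 17 windows of genes that passed 1.5-fold in any comparison. ISRE letters were found in Cxcl14, Ccl19 and Cxcl10, against 2.98% of all windows. The gamma-activated site TTCNNNGAA was found in Cxcl14, Ccl17 and Ccr6, against 7.02%. Letters for C/EBP, TTGCNNAA, stood in 5 of the 51 windows against 9.56% of all, and those for PU.1, GAGGAAGT, in 1 of 51 against 2.44%. A match describes the letters of this window and nothing about binding.

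All values are log2 expression levels, and the median over all genes was 5.28 on the sham array, 5.31 on the AAC array and 5.28 on the AAC + DAPA array. With 1 array per group no difference has a replicate check and no test was run. The standard deviation between probes of the same gene, over the 55 genes with several probes, was 0.31 for the difference of AAC and sham, 0.26 for AAC + DAPA and AAC, and 0.19 for AAC + DAPA and sham, and it leaves out variation between animals. All 8 cardiomyocyte markers were above the median on every array. The AAC array stood apart in sex-linked genes. Of 32 genes of the Y chromosome, 24 had a level on the AAC array at least 1.5-fold above both others, as for Eif2s3y with 2.50 (sham), 11.71 (AAC) and 2.72 (AAC + DAPA), although all 3 samples are labelled male. Sex, animal and constriction cannot be told apart on this array, so the difference of AAC + DAPA and sham, which leaves the AAC array out, is given beside the main results. Of the 60 genes 1 lies on the X chromosome, Cxcr3, and 0 on the Y chromosome. In heart tissue as a whole, more cells of a type and more RNA per cell cannot be told apart.

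Genes 1.5-fold or more apart, the threshold of the study and 0.58 on the log2 scale, are called higher or lower here. No detection call was used, so a level under the array median cannot be told from background and a fold against such a level is uncertain. Among the genes past 1.5-fold this applies to Ccl7, Ccl8, Ccl12, Cxcl5, Cxcl14, Cxcr4, Ccr8 and Ccr10, each under the median on at least 1 array. Compared with sham, 13 of the 60 genes (21.7%) were higher in AAC, against a background of 4.88% of all genes, and 0 were lower, against 4.98%. With AAC + DAPA set against AAC, 15 genes (25.0%) were lower, against 4.18% of all genes, and 1 was higher, against 4.16%. With AAC + DAPA set against sham, 9 genes (15.0%) were higher, against 3.22%, and 3 were lower, against 3.38%. The median difference over the 60 genes was 0.06 for AAC against sham, −0.04 for AAC + DAPA against AAC and 0.00 for AAC + DAPA against sham, and over all genes it was 0.00 in each. The genes past the threshold were thus a minority, with the middle of the set near 0. At 2-fold, 10 genes were higher in AAC than in sham (1.43% of all genes) and 0 were lower (1.24%). At the same threshold 1 was higher with DAPA than in AAC (0.831%) and 9 were lower (1.16%), and against sham 4 were higher (0.872%) and 2 were lower (0.851%) in AAC + DAPA. Restricted to genes whose higher array lay above its median, a filter that favours genes that differ, 24 members were left. Of these, 0 were higher with DAPA than in AAC, against 6.06% of such genes. With so few members a count of 0 cannot be told from that share. Each pair of comparisons has an array in common, so they are not separate observations.

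**Figure D1:**
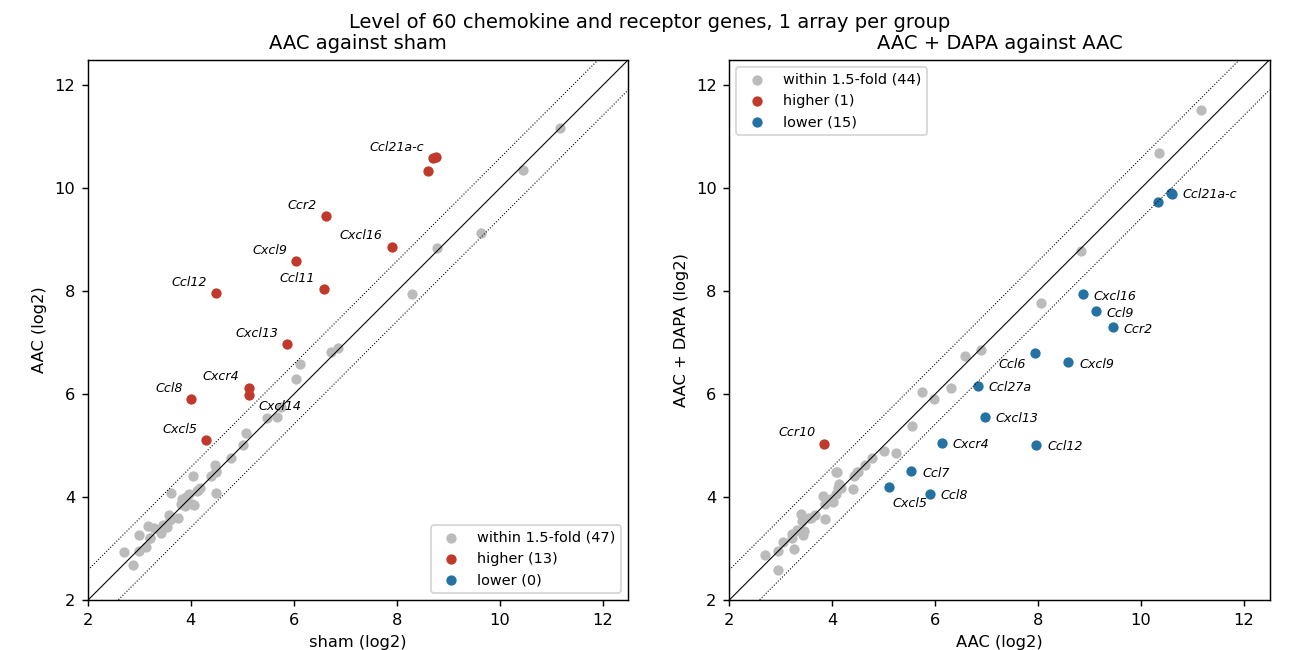
Log2 level of each of the 60 genes on the AAC array against the sham array (left) and on the AAC + DAPA array against the AAC array (right), 1 point per gene, with dotted lines at 1.5-fold. In the left panel 13 points lie above the band and 0 below it, and in the right panel 15 lie below it and 1 above it.

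Across the 3 arrays, 11 genes stood in AAC at least 1.5-fold above both sham and AAC + DAPA (18.3%, against 2.27% of all genes), namely Ccl8, Ccl12, Ccl21a, Ccl21b, Ccl21c, Cxcl5, Cxcl9, Cxcl13, Cxcl16, Ccr2 and Cxcr4. The sham array was lower than both others by that size for 6 genes, Ccl11, Cxcl14, the 3 Ccl21 genes and Ccr2 (10.0%, against 1.46%). Ccl6, Ccl7 and Ccl9 were lower in AAC + DAPA than in both others (3 of 60, against 0.928% of all genes), and Ccr10 was higher there (1.67%, against 1.19%).

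**Figure D2:**
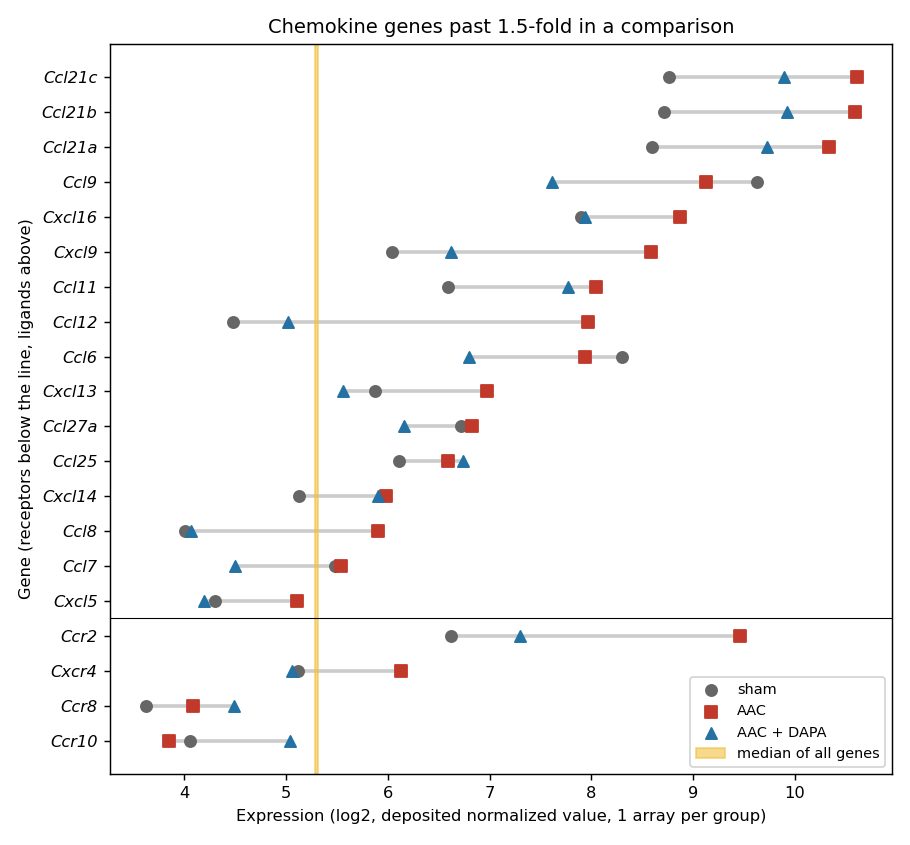
Log2 level on each of the 3 arrays for the 20 genes that differed by at least 1.5-fold in any comparison, 1 point per array and gene, with ligands above and receptors below the black line and the median of all genes as a yellow band. Ccl12, Ccr2 and Cxcl9 show the widest gaps between the AAC array and the other 2, whereas Ccl9 and Ccl6 are lowest on the AAC + DAPA array.

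Among the inflammatory CC ligands, 3 of 14 were above sham in AAC (21.4%, against 4.88% of all genes). In AAC + DAPA 5 were below AAC (35.7%, against 4.18%). Ccl12, a mouse ligand of Ccr2 that attracts monocytes, measured 4.48 (sham), 7.97 (AAC) and 5.02 (AAC + DAPA). AAC exceeded sham 11.2-fold and AAC + DAPA was 7.73-fold below AAC, so AAC stood apart. Both sham and AAC + DAPA were under the array median, so these folds are uncertain. Ccl8, which in the mouse acts on Ccr8, measured 4.01 (sham), 5.90 (AAC) and 4.06 (AAC + DAPA). AAC was 3.71-fold above sham, and here too the sham and AAC + DAPA levels were under the median and may be background. Ccl11 (eotaxin), an eosinophil attractant acting on Ccr3, measured 6.59 (sham), 8.05 (AAC) and 7.77 (AAC + DAPA). Here both constricted hearts were high, by 2.75-fold in AAC and 2.27-fold in AAC + DAPA over sham, and the AAC + DAPA level was within 1.5-fold of AAC.

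Ccl6, Ccl7 and Ccl9 had another order, with the lowest level in AAC + DAPA. Ccl9, a ligand of Ccr1 made by myeloid cells of the mouse, measured 9.63 (sham), 9.13 (AAC) and 7.61 (AAC + DAPA). AAC + DAPA was 2.87-fold below AAC and 4.06-fold below sham, while AAC against sham was −0.50. Ccl6, another myeloid ligand of Ccr1 known from rodents, measured 8.30 (sham), 7.94 (AAC) and 6.80 (AAC + DAPA). AAC + DAPA was thus 2.20-fold below AAC and 2.83-fold below sham. Ccl7, which attracts monocytes through Ccr2, measured 5.48 (sham), 5.54 (AAC) and 4.50 (AAC + DAPA), and sham and AAC differed by 0.06. The low level of AAC + DAPA for these 3 genes held against sham, without the AAC array, at −2.02, −1.50 and −0.98.

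The other inflammatory CC ligands stayed within 1.5-fold in every comparison. Ccl2, the main Ccr2 ligand in human and mouse, measured 5.67 (sham), 5.55 (AAC) and 5.39 (AAC + DAPA). It lies in the same run of genes as Ccl12, which had the largest difference of the set. Ccl20, the ligand of Ccr6, measured 6.05 (sham), 6.30 (AAC) and 6.13 (AAC + DAPA). Ccl4, which attracts T cells and monocytes, measured 5.07 (sham), 5.25 (AAC) and 4.85 (AAC + DAPA). Ccl3 and Ccl5, which share receptors with Ccl4, were under the 25th percentile of all genes on all 3 arrays, with 3.41, 3.31 and 3.36 for Ccl3 and 3.16, 3.43 and 3.27 for Ccl5 in the same order. Ccl1, Ccl24 and Ccl26 were between 3.91 and 4.26.

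Among homeostatic and other CC ligands, 3 of 9 were above sham in AAC (33.3%, against 4.88% of all genes). In AAC + DAPA 4 were below AAC (44.4%, against 4.18%). The 3 higher genes were the Ccl21 copies, which encode nearly the same ligand of Ccr7, made by lymphatic endothelium and lymph node stroma. Ccl21a measured 8.60 (sham), 10.34 (AAC) and 9.73 (AAC + DAPA). Ccl21c measured 8.76 (sham), 10.61 (AAC) and 9.89 (AAC + DAPA), and 1 of the 2 Ccl21b probes carried these same values. The other Ccl21b probe measured 8.65 (sham), 10.56 (AAC) and 9.94 (AAC + DAPA). Hybridisation may not separate the copies, so the 3 genes may be 1 measurement, 3.34-fold to 3.68-fold above sham in AAC and 2.19-fold to 2.31-fold above sham in AAC + DAPA. The step from AAC to AAC + DAPA lay close to the threshold, at −0.61 to −0.72, and for Ccl21a it was −0.54 with the arrays centred on their medians. Counted as 1 gene, an alternative added after the data were seen, the copies leave 11 genes above sham in AAC, 13 below AAC in AAC + DAPA and 7 above sham in AAC + DAPA.

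The 4 lymphatic endothelium markers Prox1, Lyve1, Pdpn and Flt4 were within 1.5-fold in each comparison. Their summed level was 11.47 (sham), 11.50 (AAC) and 11.38 (AAC + DAPA), and most of it came from Prox1, at 11.03 on each array. Flt4 was under the median on all arrays. The part of lymphatic cells in the Ccl21 values was not tested. Ccl19, the other ligand of Ccr7, measured 4.48 (sham), 4.09 (AAC) and 4.48 (AAC + DAPA), within 1.5-fold in each comparison and under the median on all arrays. Ccl27a, a ligand of Ccr10 known from skin, measured 6.72 (sham), 6.83 (AAC) and 6.16 (AAC + DAPA). AAC + DAPA was 1.59-fold below AAC, and −0.56 against sham, just inside the threshold. Ccl25, the ligand of Ccr9 known from thymus and gut, measured 6.11 (sham), 6.59 (AAC) and 6.74 (AAC + DAPA), and passed 1.5-fold only between AAC + DAPA and sham, at 1.55-fold. The remaining homeostatic ligands Ccl17, Ccl22 and Ccl28 stayed within 0.16 of sham.

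Of the CXC ligands without the ELR motif, 4 of 8 were higher in AAC than in sham. Cxcl9, which interferon gamma induces and which attracts activated T cells through Cxcr3, measured 6.04 (sham), 8.59 (AAC) and 6.62 (AAC + DAPA). AAC exceeded sham 5.86-fold, and AAC + DAPA was 3.92-fold below AAC. Between AAC + DAPA and sham it was 1.49-fold higher, just short of the threshold, and it passed at 0.59 and 0.60 with the arrays centred or quantile-normalized. Cxcl10, its neighbour with the same receptor, measured 3.12 (sham), 3.04 (AAC) and 3.12 (AAC + DAPA). Cxcl11, another Cxcr3 ligand, measured 3.59 (sham), 3.55 (AAC) and 3.59 (AAC + DAPA). Both were under the 25th percentile on all arrays, so their levels cannot be told from background and a difference could be missed. Of the Cxcr3 ligands, Cxcl9 alone passed 1.5-fold on these arrays.

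Cxcl13, which draws B cells through Cxcr5, measured 5.87 (sham), 6.97 (AAC) and 5.56 (AAC + DAPA), with AAC 2.14-fold above sham and AAC + DAPA 2.66-fold below AAC. Cxcl16, a ligand of Cxcr6 that also exists as a membrane protein of macrophages, measured 7.90 (sham), 8.87 (AAC) and 7.94 (AAC + DAPA). For both genes the sham and AAC + DAPA arrays lay within 0.31 of each other. Cxcl14, an epithelial and stromal chemokine, measured 5.13 (sham), 5.98 (AAC) and 5.90 (AAC + DAPA), so like Ccl11 it was high in both constricted hearts. Cxcl12, a stromal ligand of Cxcr4 and Ackr3, measured 11.17 (sham), 11.17 (AAC) and 11.53 (AAC + DAPA), and Cxcl17 was between 3.82 and 3.97.

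The ELR motif before the first cysteine marks CXC ligands that attract neutrophils through Cxcr2. In this class 1 of 5 was higher in AAC than in sham. Cxcl5 measured 4.30 (sham), 5.11 (AAC) and 4.19 (AAC + DAPA), under the array median throughout, with AAC 1.75-fold above sham, AAC + DAPA 1.89-fold below AAC, and −0.11 between AAC + DAPA and sham. Cxcl3 measured 5.75 (sham), 5.75 (AAC) and 6.04 (AAC + DAPA). Cxcl1 and Cxcl2, which carry the NF-kB letters in their promoter windows, differed by at most 0.10 between arrays, and Cxcl15 by at most 0.20. Cxcl2 was under the 25th percentile and Cxcl1 and Cxcl15 were under the median on all arrays. Their levels cannot be told from background, so a difference could be missed. Neither Cx3cl1, the membrane-bound ligand of Cx3cr1, nor Xcl1 passed 1.5-fold, with largest differences of 0.11 and 0.03. Both were also under the median on all arrays.

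Of 9 CC receptors, Ccr2 alone was higher in AAC than in sham (11.1%, against 4.88% of all genes). For a class of this size, a count of 1 cannot be told from that share. Ccr2, the receptor of inflammatory monocytes, measured 6.62 (sham), 9.46 (AAC) and 7.30 (AAC + DAPA). AAC exceeded sham 7.16-fold, AAC + DAPA was 4.47-fold below AAC, and AAC + DAPA was 1.60-fold above sham. Ccr10, which is known from lymphocytes that home to skin and mucosa, measured 4.05 (sham), 3.85 (AAC) and 5.04 (AAC + DAPA). Its AAC + DAPA level was 2.28-fold above AAC and 1.99-fold above sham, though below the array median. Ccr8, found on some T cells and macrophages, measured 3.62 (sham), 4.08 (AAC) and 4.49 (AAC + DAPA), and passed 1.5-fold only between AAC + DAPA and sham, at 1.83-fold.

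Ccr7, which guides dendritic cells and lymphocytes to lymph nodes, measured 6.86 (sham), 6.90 (AAC) and 6.86 (AAC + DAPA). Ccr1 measured 2.99 (sham), 3.26 (AAC) and 2.99 (AAC + DAPA), under the 25th percentile on all arrays, while its ligands Ccl6 and Ccl9 were above the median on all arrays. Ccr3 measured 3.81 (sham), 3.87 (AAC) and 3.58 (AAC + DAPA) beside the high ligand Ccl11. Ccr4, Ccr6 and Ccr9 lay between 2.58 and 3.28, and none of the 6 passed 1.5-fold.

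Of 8 receptors of the CXC, CX3C and XC families, Cxcr4 alone passed 1.5-fold. Cxcr4, found on most leukocytes, measured 5.12 (sham), 6.13 (AAC) and 5.06 (AAC + DAPA), so AAC was 2.01-fold above sham and AAC + DAPA 2.10-fold below AAC, with −0.06 between AAC + DAPA and sham. Cxcr3, the receptor for Cxcl9, measured 5.01 (sham), 5.01 (AAC) and 4.90 (AAC + DAPA). Cxcr2, the receptor for Cxcl5, measured 4.48 (sham), 4.51 (AAC) and 4.48 (AAC + DAPA). Cxcr3 and Cxcr2 thus stayed within 1.5-fold beside ligands that were high in AAC, whereas Ccr2 was high together with Ccl12. Both Cxcr3 and Cxcr2 were under the array median on all arrays, so their levels cannot be told from background. Cxcr5 measured 3.29 (sham), 3.40 (AAC) and 3.67 (AAC + DAPA), and Cxcr6 measured 3.75 (sham), 3.59 (AAC) and 3.59 (AAC + DAPA). Cx3cr1, a marker of resident and patrolling monocytes and macrophages, measured 3.45 (sham), 3.45 (AAC) and 3.34 (AAC + DAPA), and Cxcr1 and Xcr1 lay between 3.87 and 4.41.

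None of the 5 atypical receptors, Ccrl2 included, passed 1.5-fold. Ackr3, which takes up Cxcl12 and Cxcl11, measured 10.46 (sham), 10.36 (AAC) and 10.68 (AAC + DAPA). Ccrl2, which presents chemerin and does not signal, measured 8.78 (sham), 8.84 (AAC) and 8.78 (AAC + DAPA). Ackr4, a scavenger of Ccl19, Ccl21a and Ccl25, measured 4.12 (sham), 4.11 (AAC) and 4.18 (AAC + DAPA). Ackr1, the red cell and venule receptor, and Ackr2, which clears inflammatory CC chemokines, had the same value on all 3 arrays, at 3.21 and 4.49. Equal values were common in the file. To 2 decimals, 28 of the 60 genes (46.7%) had the same value on at least 2 arrays, as did 52.2% of all genes.

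In all, 40 of the 60 genes stayed within 1.5-fold in every comparison, and their largest differences were 0.39 for AAC against sham, 0.40 for AAC + DAPA against AAC and 0.38 for AAC + DAPA against sham. Of these, 33 were under the median on all 3 arrays and 7 were above it on an array, namely Cxcl12, Ackr3, Ccrl2, Ccr7, Ccl20, Cxcl3 and Ccl2. The members nearest the threshold were Ccl21a at −0.61 inside the calls and Cxcl9 at 0.58, with a fold of 1.49, outside them.

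Ligands were then set beside receptors in 43 pairs of a receptor and a ligand it is known to bind, with 19 receptors and 32 ligands, the Ccl21 copies entering as Ccl21a. For AAC against sham both partners were higher in 1 pair, Ccr2 with Ccl12. The ligand alone passed in 9 pairs, the receptor alone in 3, and neither in 30. For AAC + DAPA against AAC both were lower in 2 pairs, Ccr2 with Ccl12 and Ccr2 with Ccl7, and 1 pair went opposite ways, with Ccr10 higher and Ccl27a lower. The ligand alone passed in 10 pairs, the receptor alone in 3 and neither in 27. For AAC + DAPA against sham 0 pairs had both partners past 1.5-fold in the same direction, and 1 pair was opposite, with Ccr2 higher and Ccl7 lower. Pairs share members and are not independent of each other.

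**Figure D3:**
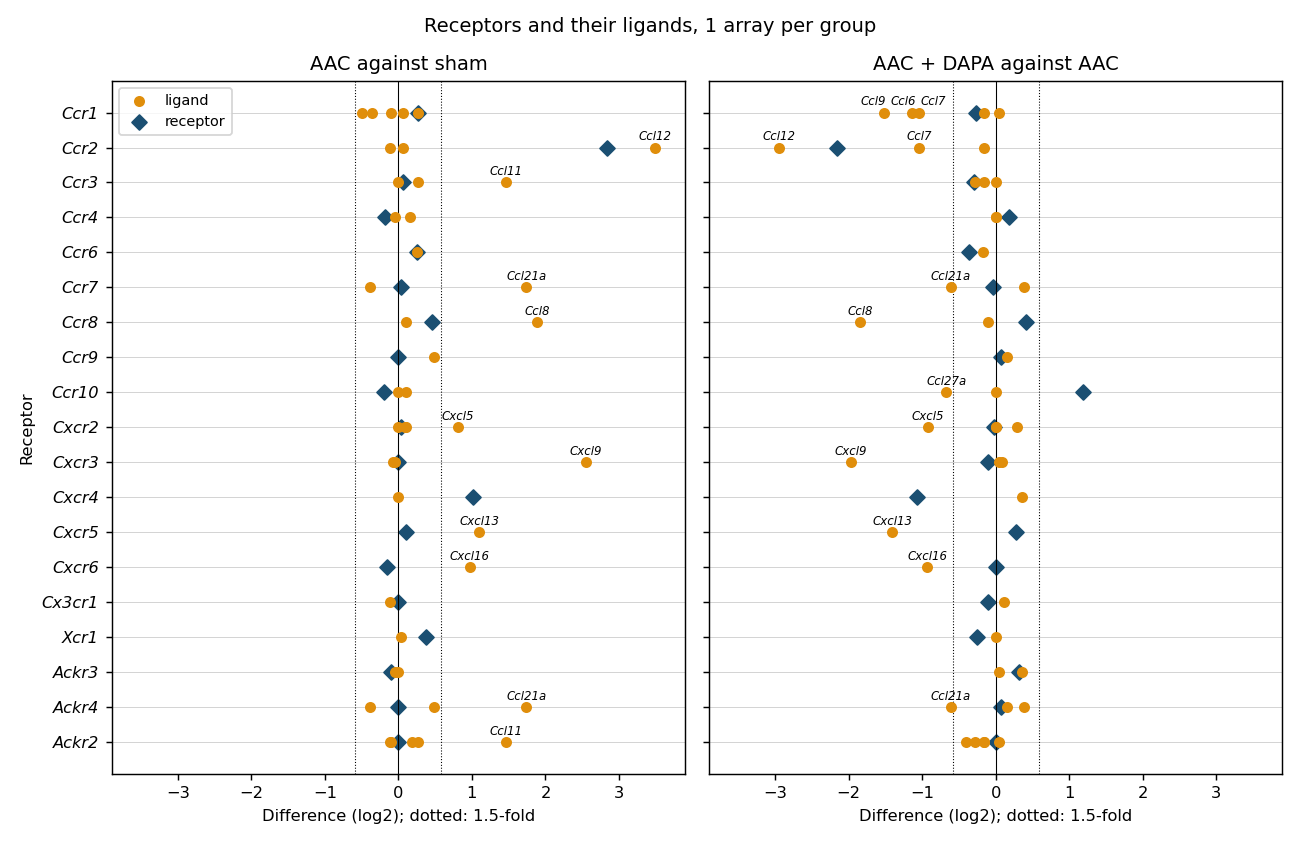
Log2 difference of each receptor (diamond) and of its paired ligands (circle) for AAC against sham (left) and AAC + DAPA against AAC (right), with dotted lines at 1.5-fold and ligands past it named. Ccr2 and Ccl12 lie far from 0 on the same side in both panels, whereas Cxcr3 stays at 0.00 and −0.11 beside Cxcl9 at 2.55 and −1.97.

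Many of these genes are neighbours, so their differences were read in chromosomal order, taken from the RefSeq table of GRCm38.p6. On chromosome 11 the run of Ccl2, Ccl7, Ccl11, Ccl12 and Ccl8 had differences of −0.12, 0.06, 1.46, 3.49 and 1.89 for AAC against sham. Genes of 1 run thus ranged from level to the largest difference of the set. For AAC + DAPA against AAC the same run had −0.16, −1.04, −0.28, −2.95 and −1.84. Further along, the adjacent Ccl9 and Ccl6 were both low in AAC + DAPA, and the next genes Ccl3 and Ccl4 stayed within 1.5-fold. On chromosome 5, in the order of the genes of the set, Cxcl9 stood alone between Cxcl2 at 0.09 and Cxcl10 at −0.08 for AAC against sham. On chromosome 9, 13 receptor genes were measured, and of Xcr1, Ccr1, Ccr3 and Ccr2, which follow each other in the set, Ccr2 alone passed 1.5-fold.

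**Figure D4:**
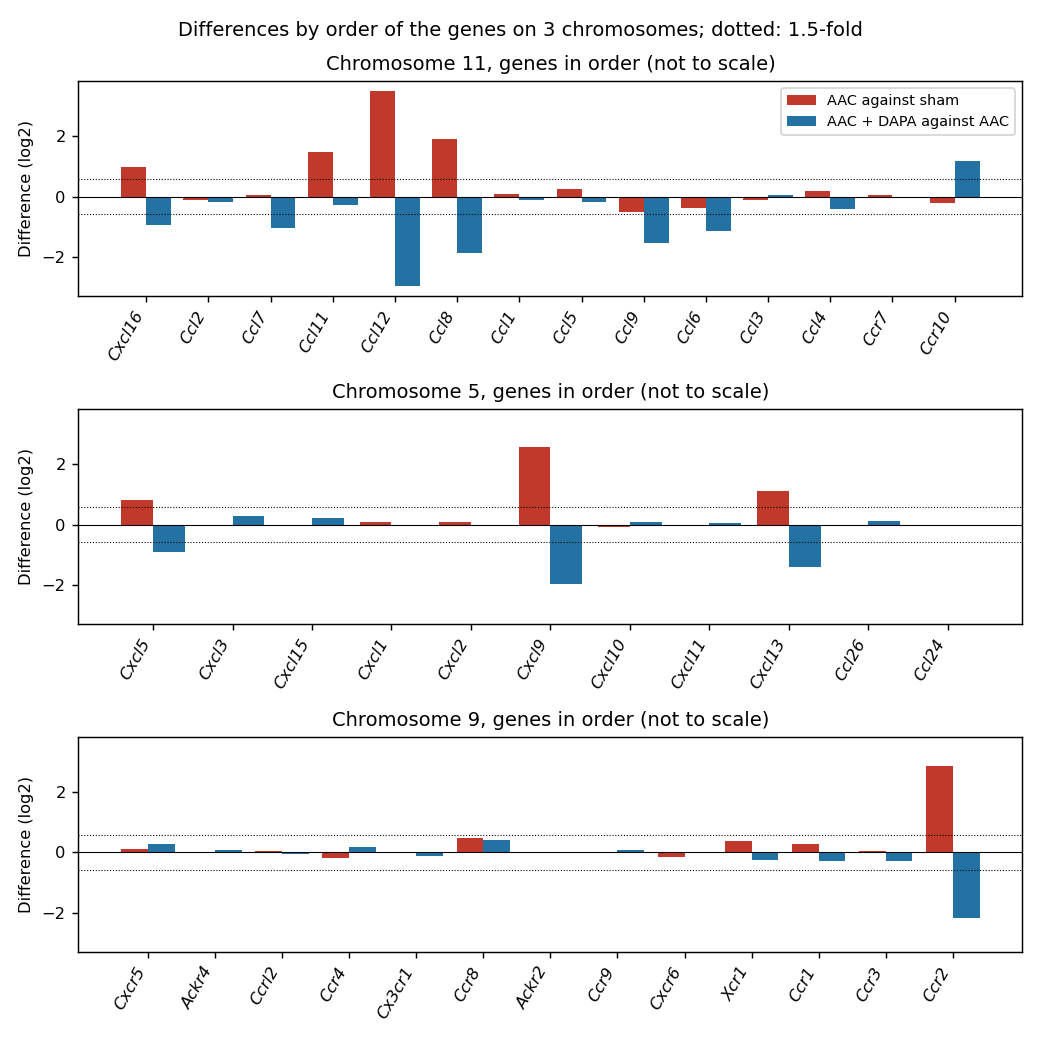
Log2 difference of the genes on chromosomes 11, 5 and 9 in their chromosomal order, for AAC set against sham and for AAC + DAPA set against AAC, with dotted lines at 1.5-fold. Genes in the same run differ, as for Ccl2 and Ccl12, and Cxcl9 lies between genes of the set near 0.

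Chemokine receptors signal through G protein subunits, phosphoinositide 3-kinase gamma and regulators of Rac. Of 23 genes for these steps, 6 were higher in AAC than in sham (26.1%, against 4.88% of all genes). These were Gng2, Grk3, Pik3cg, Pik3r5, Elmo1 and Vav1, and Grk5 alone was lower (4.35%, against 4.98%). In AAC + DAPA, Pik3cg, Pik3r5, Rac2 and Vav1 were lower than in AAC (17.4%, against 4.18%) and Rgs2 was higher (4.35%, against 4.16%). Pik3r5 and Rac2 were under the array median on all arrays, and Pik3cg and Vav1 in sham and AAC + DAPA, so their folds are uncertain. Grk5, a receptor kinase abundant in cardiomyocytes, measured 11.78 (sham), 9.84 (AAC) and 10.10 (AAC + DAPA). Between AAC + DAPA and sham, Grk5 was lower by −1.68 and Rgs2 higher by 1.39, and the other genes of this list were within 1.5-fold. Each is 4.35% of the list, near the shares of all genes, 3.38% lower and 3.22% higher. Vav1, an exchange factor of blood cells, measured 4.85 (sham), 5.62 (AAC) and 4.94 (AAC + DAPA). Of 6 chemokine-related genes with other names, Ppbp, a platelet CXC chemokine, measured 5.93 (sham), 6.65 (AAC) and 4.86 (AAC + DAPA), and Mif, which also binds Cxcr4, ran the other way with 8.13, 7.41 and 8.47.

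Of 16 genes that interferon gamma induces, 12 were above sham in AAC, with a median difference of 0.92, and 12 were below AAC in AAC + DAPA. Between AAC + DAPA and sham, 3 of the 16 were higher, Gbp2, Gbp3 and Cd274, and 0 were lower. The genes high in AAC and lower in AAC + DAPA include Cd274, the ligand of PD-1, with 5.63 (sham), 8.79 (AAC) and 6.43 (AAC + DAPA), and Gbp4, a guanylate-binding protein, with 10.23, 12.71 and 10.37. Cxcl9 followed the same order of arrays. Cxcl10 and Cxcl11 did not, but their levels were under the 25th percentile and cannot be told from background. The interferon gamma gene Ifng measured 4.66 (sham), 4.17 (AAC) and 4.66 (AAC + DAPA), and 0 of the 6 interferon and interferon receptor genes passed 1.5-fold. Ifng was under the median and Ifnb1 under the 25th percentile on all arrays. The levels of both cannot be told from background, and a difference could be missed.

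Some markers of macrophages, monocytes and neutrophils were high in AAC, as part of the set was. Of 17 macrophage and monocyte markers, 8 were above sham in AAC (47.1%, against 4.88% of all genes). In AAC + DAPA 8 were below AAC (47.1%, against 4.18%). The summed level of the 17 was 13.00 (sham), 14.08 (AAC) and 13.02 (AAC + DAPA), with 0 markers under the 25th percentile. The mannose receptor Mrc1 measured 11.80 (sham), 13.20 (AAC) and 11.92 (AAC + DAPA), and the protease Ctss measured 8.19, 9.38 and 8.02. Most of the summed level came from Mrc1 and Lyz2, the highest of the list on each array. Other markers stood level. Ly6c2 measured 9.79 (sham), 9.75 (AAC) and 9.83 (AAC + DAPA), and Plac8, Adgre1 and Mertk were also within 1.5-fold in each comparison. Between AAC + DAPA and sham only C1qa of this list passed 1.5-fold (5.88%, against 3.38% of all genes), and it was lower, by −0.78. In the same comparison Ccl6, Ccl7 and Ccl9 were lower and Ccr2 was higher. Of 6 neutrophil markers, S100a9 and Retnlg were above sham in AAC (33.3%, against 4.88% of all genes). Both were also below AAC in AAC + DAPA (33.3%, against 4.18%). The summed level of the 6 was 6.48, 7.70 and 6.64, and 4, 2 and 3 markers were under the 25th percentile. The part of these cells in the differences of Ccr2, Ccl12, Cxcl5 and Cxcl16 was not tested.

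None of the 8 T cell markers and none of the 7 NK cell markers passed 1.5-fold in any comparison. The summed T cell level was 7.79 (sham), 7.79 (AAC) and 7.85 (AAC + DAPA). Above the array median were only 2 T cell markers, Cd4 and Cd2, and 0 NK cell markers, on each array. The other levels cannot be told from background, so a difference could be missed. Of 5 B cell markers, Ms4a1 was higher and Cd79a was lower in AAC than in sham, Cd79a was above AAC in AAC + DAPA, and 4, 3 and 4 markers were under the 25th percentile in sham, AAC and AAC + DAPA. Of 6 dendritic cell markers only Cd209a passed, above sham in AAC and below AAC in AAC + DAPA. All 6 were under the array median on all arrays, so their levels cannot be told from background. Of 3 red blood cell genes, 2 were high on the AAC array. Alas2, the enzyme that starts heme synthesis in red cell precursors, measured 7.63 (sham), 11.92 (AAC) and 8.63 (AAC + DAPA), the membrane transporter Slc4a1 measured 7.54, 8.92 and 7.99, and Epb42 stood at 3.68 on each array. Their part in the chemokine values was not tested either.

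**Figure D5:**
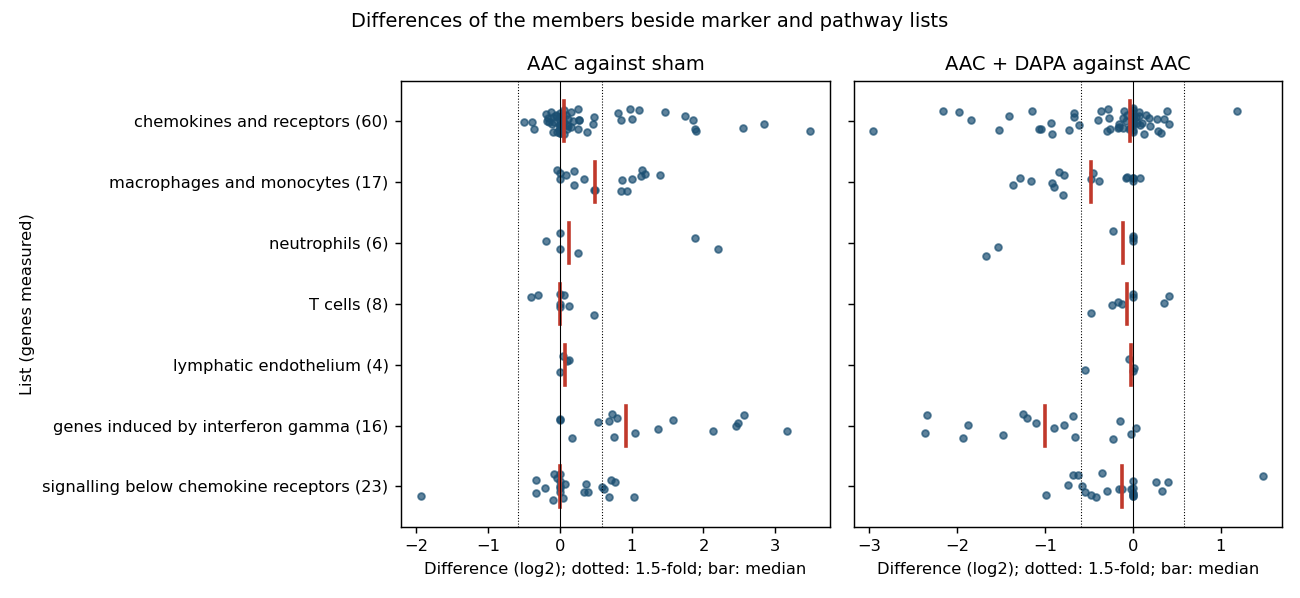
Log2 difference of each gene, 1 point per gene, for the 60 chemokine and receptor genes and 6 marker or pathway lists, for AAC beside sham (left) and AAC + DAPA set against AAC (right). Red bars are list medians, dotted lines mark 1.5-fold, and the vertical scatter within a list has no meaning. In the interferon gamma list 12 of 16 genes lie past 1.5-fold on the high side at left and 12 on the low side at right. In the macrophage and monocyte list it is 8 of 17 in each, and in the T cell list 0 of 8. Of all genes, 4.88% lie past it on the high side at left and 4.18% on the low side at right. Only 2 T cell markers were above the median on each array.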

How the data were processed

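The values deposited by the authors are normalized log2 levels of each probe on each array. Affymetrix Expression Console is named in the submitters' processing notes, and the normalization method was not given in the sources used here. The study's methods name a human array and an Agilent protocol, whereas the probes are those of mouse genes. All 3 columns were matched to samples by their labels, with 0 unmapped. Of 22206 probes, 19572 had exactly 1 gene symbol in the platform annotation and were averaged per gene. Depth does not apply to arrays, and their number limits the precision.

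Members were found by symbol. Genes at least 1.5-fold apart were counted, with no filter on low values, and the shares of all genes past the same fold are given as background. Named were members past 1.5-fold in any comparison, members above an array's median, their ligands or receptors, and up to 3 genes of each list. List genes named outside this rule were chosen after their values were seen. Members, lists, pairs and motifs were chosen with earlier results of these data known. Alternatives were centring of the arrays, quantile normalization, the top probe of each gene, a level filter, a threshold of 2-fold, leaving out sex chromosomes, and the Ccl21 copies as 1 gene. Functions were tested on simulated data. Promoters came from RefSeq (GRCm38.p6). Python 3.11.15, numpy 2.4.6, pandas 2.3.3 and matplotlib 3.10.9 were used.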

Additional observations from a re-analysis of the deposited data

How the results depend on the processing

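With 1 array per group the limits are those of single arrays, and the counts describe these arrays rather than the conditions. Leaving out a replicate was impossible, and no paired analysis was possible because each group holds 1 array. Counting at 2-fold left 9 members below AAC in AAC + DAPA and 4 above sham. Among genes whose higher array lies above that array's median, which favours genes that differ, the median difference of the members was 0.67 for AAC against sham, −0.67 for AAC + DAPA against AAC and 0.22 for AAC + DAPA against sham, and 0 members were above AAC in AAC + DAPA. That filter left 24, 24 and 21 members. Centring the arrays on their medians shifted all genes by −0.06 for AAC against sham and 0.07 for AAC + DAPA against AAC. Among all genes past 1.5-fold it moved the share that was higher from 49.5% to 39.8% and from 49.9% to 63.5%, while 13 members were above sham in AAC and 14 below AAC in AAC + DAPA. Of 60 differences of named members, 58 kept their side of the threshold under centring, 59 under quantile normalization and 60 with the top probe. The exceptions were Ccl21a in AAC + DAPA against AAC (−0.54, centring) and Cxcl9 in AAC + DAPA against sham (0.59 and 0.60). Of the differences of members past 1.5-fold in any comparison, that of Ccl7 for AAC against sham changed sign, from 0.06 to −0.01 under quantile normalization and 0.00 under centring, within the threshold throughout.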

Other observations

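Genes induced by type I interferon did not share one order of arrays. Of 19 measured, 6 were above sham in AAC (31.6%, against 4.88% of all genes) and 0 below (against 4.98%). In AAC + DAPA 2 were above AAC (10.5%, against 4.16%). Below AAC there was 1 (5.26%, against 4.18%), which is near the share of all genes. Set against sham, 4 were higher in AAC + DAPA (21.1%, against 3.22%) and 0 lower (against 3.38%). Xaf1, a proapoptotic interferon-induced gene, measured 6.18 (sham), 7.18 (AAC) and 9.19 (AAC + DAPA). Ifit2, which binds viral RNA, measured 5.58 (sham), 6.74 (AAC) and 7.63 (AAC + DAPA). Rsad2, the antiviral enzyme viperin, measured 6.77 (sham), 8.26 (AAC) and 7.34 (AAC + DAPA). Xaf1 and Ifit2 were thus highest in AAC + DAPA, and Rsad2 had the order of Cxcl9.

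Among 12 inflammatory cytokine and NF-kB target genes, Il6 and the adhesion molecule Selp were higher in AAC than in sham (16.7%, against 4.88% of all genes). Il6 measured 3.01 (sham), 4.11 (AAC) and 2.99 (AAC + DAPA), and Selp measured 3.21 (sham), 5.13 (AAC) and 3.21 (AAC + DAPA). Both were under the array median on all arrays, so these levels cannot be told from background. In AAC + DAPA 4 genes of this list, Il6 and Selp among them, were lower than in AAC (33.3%, against 4.18% of all genes).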
